A study of Mus musculus with 6 samples.

Results

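Expression of 39 genes for lysosomal hydrolases and lysosomal membrane proteins was followed in mouse bone marrow-derived macrophages (BMMs), the precursors of osteoclasts. The members were the rows of the deposited expression table whose gene symbol is on a list of 39 known lysosomal genes, and all 39 were found among 24940 genes. By class they are 10 proteases, 10 glycosidases, 5 sulfatases, 8 lipid and phosphate hydrolases with their activators, and 6 membrane proteins. All 39 passed the low-value filter (mean RPKM of 0.5 or more), which left 11595 genes for testing. RPKM is the number of reads on a transcript scaled to its length in kilobases and to the depth of the library, so levels of different genes can be set side by side.

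The study asked how a leaf extract (LE) of Abeliophyllum distichum, a shrub of the olive family, acts on osteoclast formation. All cultures were kept for 3 days with the macrophage growth factor M-CSF at 30 ng/mL. The -R group received nothing else, the +R group received the osteoclast-inducing cytokine RANKL at 100 ng/mL, and the R+LE group received RANKL at 100 ng/mL together with LE at 10 μg/mL. Each group has 2 libraries, 6 in all, from total RNA of primary cells. The labels give C57BL/6 mice aged 6 to 8 weeks, whereas the methods of the study describe ICR mice. There was no group with LE and without RANKL, and the sources do not say whether the libraries of a group came from separate animals, so p-values measure the spread between these samples, which may be technical. These are bulk cultures, in which fewer cells of a type and less RNA per cell cannot be told apart.

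Lysosomes are acidic organelles in which proteins, glycans and lipids are broken down by hydrolases that work at low pH. Cathepsins cut proteins, glycosidases and sulfatases take apart glycosaminoglycans and the sugar chains of glycolipids and glycoproteins, and lipid hydrolases release fatty acids, cholesterol and sphingoid bases, while heavily glycosylated proteins such as LAMP1 and LAMP2 line the membrane. Macrophages are rich in these enzymes. Osteoclasts turn part of the same machinery outwards, releasing acid and the protease cathepsin K onto bone. Many lysosomal genes carry in their promoters the CLEAR element, a palindrome bound by the MiT/TFE transcription factors TFEB, TFE3, MITF and TFEC.

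Promoter sequences are shown for the members with the largest changes after LE and for those that hold the centre of the CLEAR element. They come from RefSeq, from assembly GRCm38.p6, and cover 250 bases before to 50 bases after the start of transcription. A promoter was found for 35 of the 39 genes. The members with the 3 largest changes after LE that had an entry were Ctsl at chr13:64370471-64370770 on the minus strand, Arsb at chr13:93771429-93771728 on the plus strand and Lipa at chr19:34527425-34527724 on the minus strand. They are printed 5′ to 3′ along the gene, and capitals mark the E-box CACGTG.
Ctsl: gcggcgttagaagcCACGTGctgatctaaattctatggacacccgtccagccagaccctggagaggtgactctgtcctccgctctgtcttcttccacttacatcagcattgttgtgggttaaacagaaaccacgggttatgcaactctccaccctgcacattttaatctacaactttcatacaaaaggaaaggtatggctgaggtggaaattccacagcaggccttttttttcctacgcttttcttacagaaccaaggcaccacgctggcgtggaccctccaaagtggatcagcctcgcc
Arsb: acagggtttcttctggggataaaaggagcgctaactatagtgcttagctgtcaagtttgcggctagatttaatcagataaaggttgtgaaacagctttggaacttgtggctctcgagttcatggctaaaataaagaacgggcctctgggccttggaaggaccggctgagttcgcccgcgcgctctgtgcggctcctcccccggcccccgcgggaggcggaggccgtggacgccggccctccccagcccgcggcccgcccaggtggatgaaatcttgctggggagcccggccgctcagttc
Lipa: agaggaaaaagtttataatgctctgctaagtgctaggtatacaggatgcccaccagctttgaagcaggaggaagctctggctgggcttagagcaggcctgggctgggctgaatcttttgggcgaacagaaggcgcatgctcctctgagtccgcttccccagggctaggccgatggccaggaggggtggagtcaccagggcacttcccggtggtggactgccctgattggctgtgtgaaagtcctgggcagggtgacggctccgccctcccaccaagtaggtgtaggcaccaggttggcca

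Of the 5 motifs searched on both strands, the Ctsl promoter held an E-box whose first base is at -236 relative to the start, and neither the Arsb nor the Lipa promoter held a match to any. The 8 central letters of the CLEAR element, TCACGTGA, stood in 4 of the 35 member promoters (11.4%) and in 320 of 32851 promoters in the table (0.974%). The E-box CACGTG, which is contained in TCACGTGA, was present in 12 member promoters (34.3%, against 7.15% of all). The M-box TCATGTGA was present in 3 (8.57%, against 0.986%), the AP-1 letters TGANTCA in 4 (11.4%, against 7.81%), and the core of the antioxidant response element, TGACNNNGC, in 7 (20%, against 12.4%). Since many lysosomal genes are known to carry the CLEAR element, a higher share among the members could be foreseen, and it was not tested. For a member only the nearest promoter was used, whereas the table can list several promoters of a gene. A match is a description of these letters and not a measured binding site.

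The 4 promoters with TCACGTGA are those of Ctsa, Ctsd, Gla and Mcoln1, and they were picked for display after the matches were seen. The stretches of 60 bases around the matches are chr2:164833742-164833801 on the plus strand for Ctsa, chr7:142387893-142387952 on the minus strand for Ctsd, chrX:134601184-134601243 on the minus strand for Gla and chr8:3500447-3500506 on the plus strand for Mcoln1. Capitals mark the 8 letters, which occur in 2 places in Ctsa and in Gla.
Ctsa: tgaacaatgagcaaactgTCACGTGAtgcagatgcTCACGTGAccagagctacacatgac
Ctsd: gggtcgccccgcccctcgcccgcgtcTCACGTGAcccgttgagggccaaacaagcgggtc
Gla: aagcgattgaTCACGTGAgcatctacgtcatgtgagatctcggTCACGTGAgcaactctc
Mcoln1: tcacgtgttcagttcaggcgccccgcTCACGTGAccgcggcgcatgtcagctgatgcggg
Among these 4 genes the response to RANKL ranged from no passing change for Ctsa to a fall of Ctsd, Gla and Mcoln1, as given below by class.

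Depth was even across the libraries, with between about 29390194 and 34846385 mapped reads, of which 74.2% to 80.7% lay on genes. The least covered member, Ctsf, still had 92 reads in its lowest library. Exons of 14 members overlap those of another annotated gene, which the counting did not separate, as given below by gene. Rn45s, the ribosomal RNA precursor, took up 4.97% to 6.83% of gene reads without RANKL and 10.9% to 13.5% in the other 4 libraries, and it enters the depth by which RPKM is scaled. Replicate 2 was below replicate 1 for 37 of the 39 members in +R and for 35 in R+LE, beside 65.3% and 69.1% of all genes tested, and for 8 of the 39 in -R, beside 40.1%. The labels were checked against markers: all 7 macrophage markers were above 3 reads in every group, and the osteoclast markers summed to 43.2 to 44.8 RPKM in -R, 1923 to 2184 RPKM in +R and 336 to 389 RPKM in R+LE. Markers of B cells summed to at most 1.96 RPKM and those of T and NK cells to at most 0.265 RPKM, with Cd3e at 0 in every library. Neutrophil markers summed to 15.3 to 17.2 RPKM in -R and to at most 2.53 RPKM in the other groups, and stromal and osteoblast markers to 14.9 to 16.5 RPKM in -R, 10.4 to 14.2 RPKM in +R and 8.48 to 9.82 RPKM in R+LE, with the osteoblast gene Bglap2 at 0 throughout. Most of the -R neutrophil sum was S100a8 (10.55 and 10.53 RPKM) and S100a9 (5.935 and 4.505 RPKM), with Elane at 0 in -R. Most of the stromal sum was Col1a1 and Col1a2, which did not pass with RANKL (adjusted p = 0.064 and 0.44), whereas Runx2 was lower (adjusted p = 0.029).

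As a share of the reads on genes, with Rn45s left out, the 39 members took up 3.34% and 3.58% of -R libraries, 1.29% and 1.16% of +R libraries, and 1.62% and 1.48% of R+LE libraries. The 3 groups did not overlap. Proteases made up most of this share, at 2.18% and 2.33% for -R, 0.615% and 0.543% for +R, and 0.875% and 0.772% for R+LE. Glycosidases lay between 0.131% and 0.163% in all 6 libraries. Both R+LE libraries, at 0.135% and 0.131%, were below all -R and +R libraries. Sulfatases were the only class with their highest share in +R, at 0.0518% and 0.0505%, against 0.0312% and 0.0329% in -R and 0.0365% in both R+LE libraries. This was not shared by the 5 sulfatases, of which 2 passed as higher and 2 as lower in +R. Their RPKM summed to 60.7 and 65.5 in -R and to 94.0 and 86.4 in +R. Arsb alone had 14.5 and 16.2 RPKM in -R and 47.0 and 41.9 in +R. For a share of reads, the smallest p that a two-sided exact permutation test can give with 2 libraries in each group is 0.333.

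**Figure D1:**
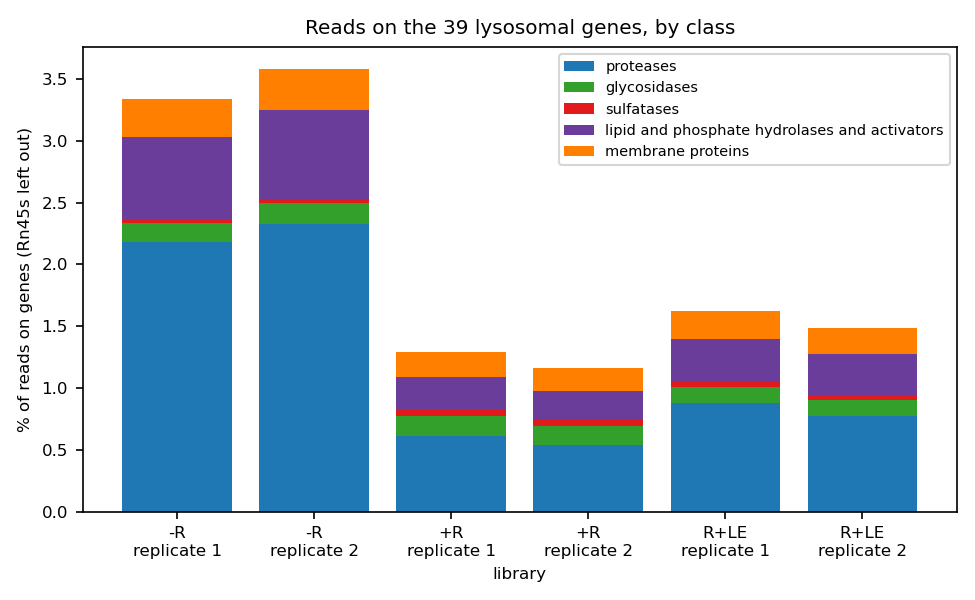
Stacked bars give, for each of the 6 libraries on the x axis, the share of reads on genes (%, Rn45s left out) that fell on the 39 members, coloured by class. The -R bars reach 3.34% and 3.58%, the +R bars 1.29% and 1.16% and the R+LE bars 1.62% and 1.48%, and the protease part differs most in height.

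The first comparison, +R against -R, asks how the lysosomal genes of precursors differ after 3 days of RANKL. Of the 39 members, 7 were higher and 21 were lower in +R at an adjusted p under 0.05, beside 23.9% of all genes tested that were higher and 21.5% that were lower. With a change of at least 2-fold as well, 2 members were higher (Ctsf and Arsb) and 12 were lower, beside 6.58% and 8.92% of all genes. The median log2 change of the members was -0.55, against 0.05 over all genes tested. The 7 macrophage markers summed to 5999 and 6511 RPKM in -R and to 2270 to 2988 RPKM in +R, 6 of the 7 being lower in +R, and all 9 osteoclast markers were higher; the part of these shifts, and of the lower neutrophil, B cell and stromal sums, in the members' changes was not tested.

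The second comparison, R+LE against +R, asks what LE added to RANKL. Here 5 members were higher (Ctsl, Ctsh, Lipa, Scarb2 and Lamp2) and 5 were lower (Arsb, Naglu, Smpd1, Glb1 and Hexa), beside 5.19% and 6.86% of all genes tested. At 2-fold or more, 2 were higher (Ctsl and Lipa) and 1 was lower (Arsb), beside 1.46% and 1.78%. The median log2 change was -0.00 for the members and -0.05 for all genes. Macrophage markers summed to 3467 to 3830 RPKM in R+LE, with 2 of the 7 higher than in +R and none lower, and all 9 osteoclast markers were lower than in +R. Most of the macrophage sum was Lyz2, lysozyme, at 2448 and 1815 RPKM in +R and 3191 and 2929 RPKM in R+LE, a difference that did not pass (log2 0.54, adjusted p = 0.19), and Csf1r, the M-CSF receptor, had a log2 difference of -0.16 (adjusted p = 0.66). The part of these differences, and of the lower stromal sum in R+LE, in the members' changes was not tested. The split between higher and lower members depended on single libraries, as 10 were higher and 4 lower without R+LE replicate 2, and 4 were higher and 9 lower without R+LE replicate 1. With each library centred on its median, 8 were higher and 5 lower, and with no filter on low values 4 were higher and 1 lower.

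The third comparison, R+LE against -R, shows where cells given both agents stood relative to precursors. In it 3 members were higher (Ctsf, Manba and Ids) and 25 were lower, beside 15.3% and 19% of all genes. At 2-fold or more, 1 was higher (Ctsf) and 10 were lower, beside 3.92% and 6.36%. The median log2 change was -0.63 for the members and -0.01 for all genes. The count of lower members fell to 16 without -R replicate 2, and that of higher members to 1 without -R replicate 1. The 3 comparisons share libraries, +R entering the first and the second, so their values are given side by side and are not independent.

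**Figure D2:**
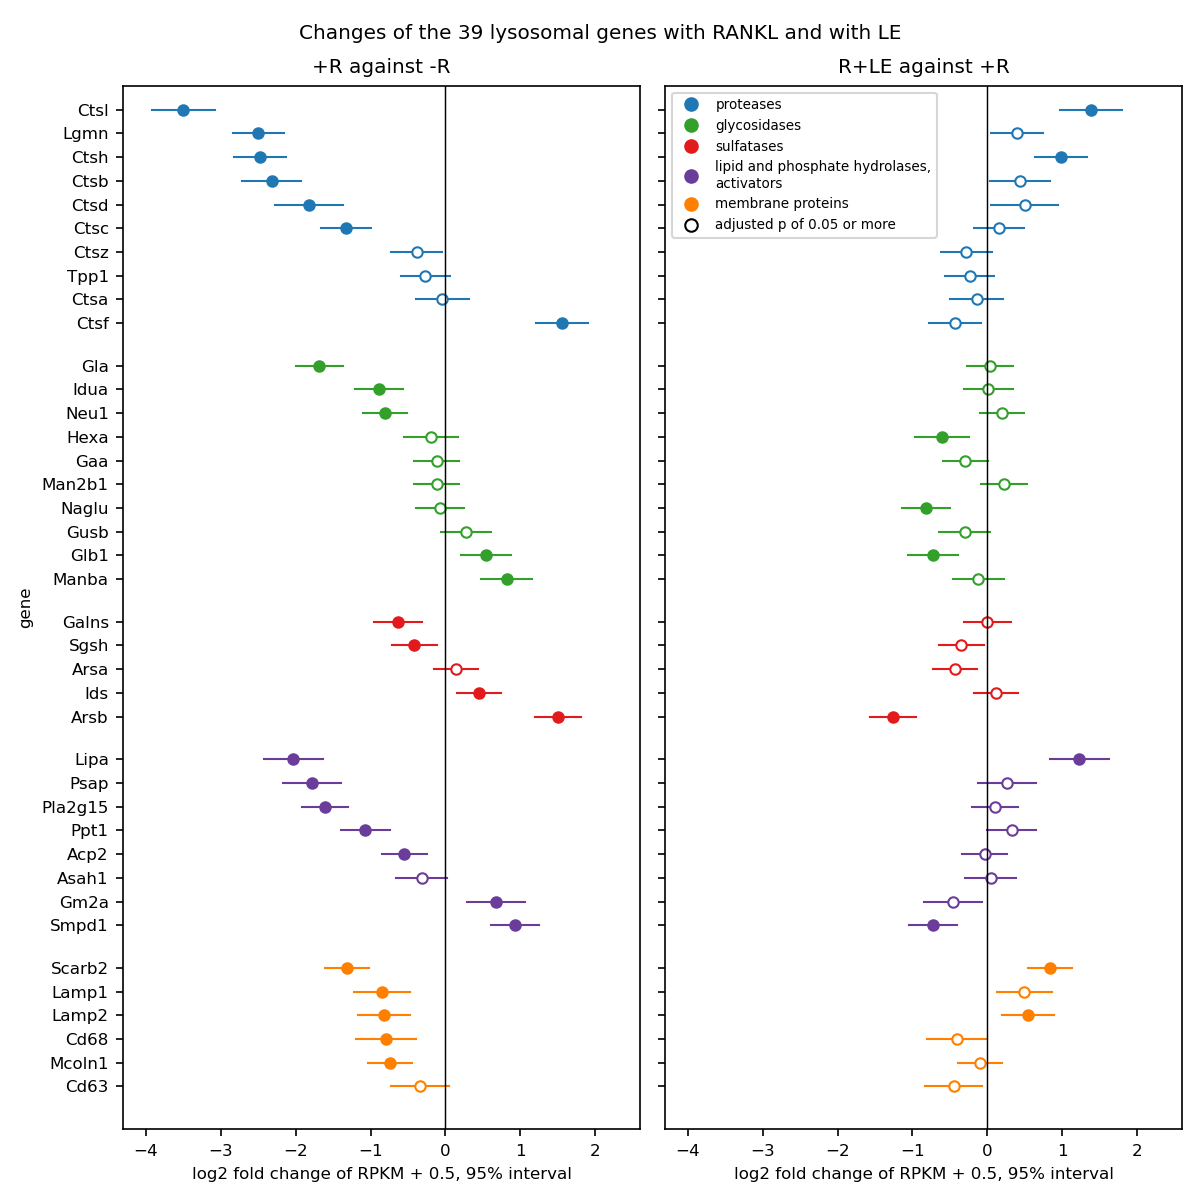
Points give the log2 fold change of RPKM + 0.5 for each of the 39 genes with its 95% interval, for +R against -R on the left and R+LE against +R on the right, coloured by class, and open points have an adjusted p of 0.05 or more. In the left panel 30 of 39 points lie below 0, down to Ctsl at -3.50, and in the right panel 19 lie above 0 and 20 below, from Ctsl at 1.39 to Arsb at -1.26.

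Among the 10 proteases, 6 fell with RANKL and 1 rose, all 7 of them by at least 2-fold, and the class median was -1.57 on the log2 scale. These shares of 60% and 10% stand beside 21.5% and 23.9% of all genes tested, and at 2-fold or more beside 8.92% and 6.58%. Ctsl, at chr13:64361890-64370520 of mm10, encodes cathepsin L, an endopeptidase of the papain family that also processes antigens and other proenzymes. Its RPKM was 1249 and 1317 in -R cells, 126 and 101 in +R cells, and 351 and 249 in R+LE cells. The groups did not overlap, and R+LE lay between the other groups, nearer to +R. Ctsl was 11.3-fold lower in +R than in -R by the ratio of mean RPKM, which is -3.50 ± 0.20 (SE) on the log2(RPKM + 0.5) scale (adjusted p = 1.5e-09), and it was 2.64-fold higher in R+LE than in +R (log2 1.39 ± 0.20, adjusted p = 0.00024). It remained 4.28-fold lower in R+LE than in -R (adjusted p = 7.3e-07). Exons of Ctsl overlap the antisense gene Gm47123 over 1742 bases and a pseudogene over 395 bases, and the counting did not use strand, so reads of these could not be separated.

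Ctsh, at chr9:90054267-90076095, encodes cathepsin H, a papain-family enzyme that trims proteins from the amino end. It was measured at 68.1 and 74.2 RPKM in -R cells, 13.8 and 11.0 in +R cells, and 28.5 and 21.9 in R+LE cells. The order of the groups was that of Ctsl. Ctsh fell 5.72-fold with RANKL (log2 -2.48 ± 0.16, adjusted p = 8.4e-09) and was 2.03-fold higher in R+LE than in +R (log2 0.99 ± 0.16, adjusted p = 0.00076), just under the 2-fold line on the log2 scale.

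The other members of the class that fell were higher on average in R+LE than in +R, but none of these differences passed the test. Ctsd, the aspartic protease cathepsin D, was the most abundant member in every group. Its RPKM was 2485 and 2800.0 in -R cells, 813 and 688 in +R cells, and 1185 and 942 in R+LE cells. It was 3.52-fold lower in +R than in -R (log2 -1.82 ± 0.21, adjusted p = 4.7e-06) and its difference between R+LE and +R was 0.50 ± 0.21 on the log2 scale (adjusted p = 0.16). Part of the Ctsd exons, 808 bases, is also annotated as Gm49369 on the same strand.

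Ctsb, cathepsin B, is a papain-family enzyme that works as both an endopeptidase and a carboxypeptidase. It stood at 916 and 1051 RPKM in -R cells, 221 and 174 in +R cells, and 290.1 and 243 in R+LE cells. The fall with RANKL was 4.98-fold (log2 -2.32 ± 0.19, adjusted p = 8.2e-08), and R+LE exceeded +R by 0.44 ± 0.19 on the log2 scale (adjusted p = 0.16). The +R and R+LE libraries did not overlap, although the lowest R+LE value was close to the highest +R value. The gene Fdft1 shares 774 exon bases with Ctsb on the opposite strand.

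Lgmn encodes legumain, which cuts after asparagine and activates several cathepsins. Its levels were 299.8 and 314 RPKM in -R cells, 58.3 and 49.9 in +R cells, and 79.2 and 63.9 in R+LE cells. Legumain transcript was 5.67-fold lower with RANKL (log2 -2.50 ± 0.16, adjusted p = 7.1e-09), and with LE the difference of 0.40 ± 0.16 did not pass (adjusted p = 0.14). Ctsc, the dipeptidyl peptidase that activates serine proteases of granules, had 78.6 and 85.4 RPKM in -R cells, 34.8 and 29.9 in +R cells, and 40.8 and 31.9 in R+LE cells. The +R and R+LE libraries of Ctsc overlapped, and its passing change was the 2.54-fold fall with RANKL (log2 -1.33 ± 0.16, adjusted p = 5.5e-06).

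Ctsf, cathepsin F, moved the other way at a level far below the rest of the class. It had 1.69 and 1.35 RPKM in -R cells, 5.80 and 5.09 in +R cells, and 4.32 and 3.54 in R+LE cells. It rose 3.59-fold with RANKL (log2 1.56 ± 0.16, adjusted p = 1.5e-06) and was still 2.59-fold above -R in R+LE (adjusted p = 6.2e-05), while the difference between R+LE and +R, -0.43 ± 0.16, did not pass (adjusted p = 0.11). The remaining 3 proteases did not pass in either of the first 2 comparisons. Ctsa, which protects β-galactosidase and neuraminidase in a complex, differed by -0.04 ± 0.17 with RANKL and -0.14 ± 0.17 with LE. Its exons share 495 bases with Pltp and 324 with Neurl2 on the opposite strand. Ctsz, the carboxypeptidase cathepsin Z, and Tpp1, the tripeptidyl peptidase lost in a childhood neuronal storage disease, had log2 differences of -0.38 and -0.27 with RANKL and -0.28 and -0.23 with LE, and both passed as lower when R+LE was set against -R (log2 -0.67 with adjusted p = 0.0046, and -0.50 with adjusted p = 0.019). The Ctsz call was lost with each -R library left out in turn (adjusted p of up to 0.0764), and that of Tpp1 in 4 of 17 alternatives, among them with each -R library or R+LE replicate 2 left out (adjusted p of up to 0.131). Ctsz shares 10 exon bases with Nelfcd on the opposite strand.

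The order of the protease transcripts changed with the condition. In -R, Ctsd at 2642 ± 223 RPKM (SD, n = 2) was followed by Ctsl at 1283 ± 47.8 and Ctsb at 984 ± 95.6. In +R, Ctsd at 750.2 ± 88.2 was followed by Ctsz at 197 ± 13.8 and Ctsb at 197 ± 33.2, whose libraries overlapped, and by Ctsa at 138 ± 15.8 and Ctsl at 114 ± 17.1. In R+LE, Ctsd at 1063 ± 172 was followed by Ctsl at 300.0 ± 72.6 and Ctsb at 266 ± 33.4, which overlapped. Ctsl thus held the second place in -R, the fifth in +R and the second in R+LE, in the last case without a gap to Ctsb. For comparison, Ctsk, the bone-degrading cathepsin K of osteoclasts, which is not among the 39, was at 0.199 ± 0.024, 73.8 ± 13.4 and 16.2 ± 2.75 RPKM in -R, +R and R+LE. In +R this was below Ctsl in every library and above Lgmn.

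**Figure D3:**
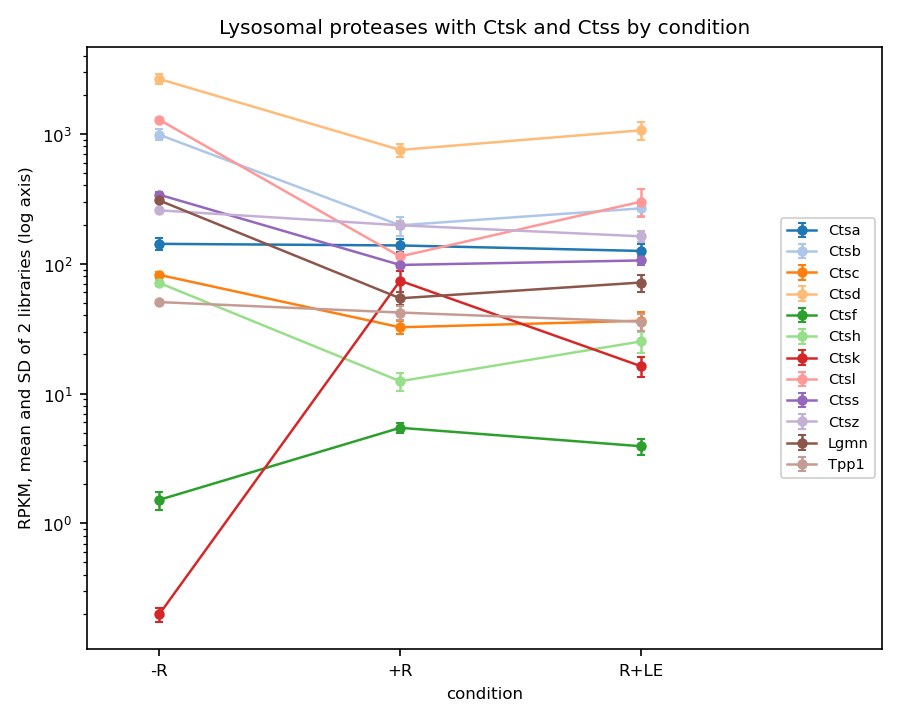
Points and bars give the mean and SD of 2 libraries in RPKM on a log axis for the 10 proteases and for Ctsk and Ctss, by condition, and lines join the means of a gene. Ctsd is highest throughout, from 2642 to 750.2 RPKM, Ctsl drops from 1283 to 114 and stands at 300.0 in R+LE, and Ctsk goes from 0.199 to 73.8 and 16.2.

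Of the 10 glycosidases, 2 rose with RANKL, 3 fell and 5 did not pass, with a class median of -0.12 on the log2 scale. The shares of 20% and 30% lie near the 23.9% and 21.5% of all genes tested. With LE, 3 fell and 7 did not pass, beside 6.86% of all genes that fell. Gla, the α-galactosidase whose loss causes Fabry disease, had the largest change of the class, with 44.0 and 43.6 RPKM in -R cells, 14.3 and 12.3 in +R cells, and 15.0 and 12.4 in R+LE cells. It was 3.29-fold lower with RANKL (log2 -1.68 ± 0.15, adjusted p = 1.8e-07), and its +R and R+LE libraries overlapped (log2 0.04 ± 0.15, adjusted p = 0.92).

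Hexa and Naglu passed the test with LE and not with RANKL. Hexa encodes a lysosomal enzyme that removes a sugar from GM2 ganglioside, and was the most abundant glycosidase. It was measured at 168 and 186 RPKM in -R cells, 173 and 138 in +R cells, and 111 and 92.5 in R+LE cells. The -R and +R libraries overlapped (log2 -0.19 ± 0.17, adjusted p = 0.38) and both R+LE libraries lay below them, 1.53-fold under +R on average (log2 -0.61 ± 0.17, adjusted p = 0.028). Hexa shares 255 exon bases with Tmem202 on the opposite strand. Its LE call was lost in 6 of 17 alternatives, with an adjusted p of up to 0.323. Naglu, which cleaves N-acetylglucosamine from heparan sulfate, had 21.2 and 17.3 RPKM in -R cells, 17.1 and 19.2 in +R cells, and 10.9 and 9.32 in R+LE cells. Again only R+LE stood apart, 1.79-fold below +R (log2 -0.81 ± 0.15, adjusted p = 0.0019). A passing change with LE and not with RANKL does not by itself show that the 2 responses differed, which was not tested.

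Glb1, β-galactosidase, rose with RANKL from a mean of 10.7 ± 0.279 to 15.8 ± 0.742 RPKM (log2 0.54, adjusted p = 0.0098) and stood at 9.49 ± 2.14 RPKM with LE (log2 -0.72 against +R, adjusted p = 0.0056). The rise was lost with no filter and with each -R library left out in turn (adjusted p of up to 0.0813), and the LE call with no filter (adjusted p = 0.0865). Its values come from a transcript that RefSeq lists as noncoding, and 165 bases of its exons are shared with Tmppe. Manba, the lysosomal β-mannosidase, rose with RANKL from 7.96 ± 0.960 to 14.6 ± 3.07 RPKM (log2 0.82, adjusted p = 0.00066) and had 13.2 ± 1.01 RPKM with LE, whose libraries overlapped those of +R. Neu1, the sialidase, and Idua, which trims iduronic acid from heparan and dermatan sulfate, fell by 0.81 and by 0.89 on the log2 scale (adjusted p = 0.0002 and 0.00022), with LE differences of 0.20 and 0.01 that did not pass. Idua overlaps Dgkq and Slc26a1 on the opposite strand over 124 and 141 exon bases. Gaa, Gusb and Man2b1, which degrade glycogen, glucuronides and mannose chains, did not pass with RANKL or with LE, with log2 differences between -0.30 and 0.28, and Gaa was lower in R+LE than in -R (log2 -0.41, adjusted p = 0.034), a call lost in 7 of 17 alternatives.

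The 5 sulfatases remove sulfate groups from glycosaminoglycans and sulfolipids. With RANKL, 2 rose (Arsb and Ids) and 2 fell (Galns and Sgsh), and with LE 1 fell. In this class of 5 genes these are 40% each with RANKL, beside 23.9% and 21.5% of all genes tested. With LE the share is 20%, beside 6.86%. Arsb, at chr13:93771679-93943016, encodes arylsulfatase B, which acts on dermatan and chondroitin sulfate. Its RPKM was 14.5 and 16.2 in -R cells, 47.0 and 41.9 in +R cells, and 19.6 and 16.9 in R+LE cells. Both +R libraries were above all others, and R+LE lay just above -R. Arsb rose 2.89-fold with RANKL (log2 1.50 ± 0.14, adjusted p = 5.9e-07) and was 2.43-fold lower in R+LE than in +R (log2 -1.26 ± 0.14, adjusted p = 2.8e-05). Between R+LE and -R the difference was 0.24 ± 0.14 (adjusted p = 0.22). Exons of Arsb overlap 2 noncoding genes of the opposite strand, Gm26527 over 1948 bases and Gm47210 over 463 bases, which the counting could not separate.

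The other sulfatases changed less. Ids, which removes the sulfate of iduronic acid, went from 14.0 ± 1.64 RPKM in -R to 19.2 ± 0.462 in +R and 20.9 ± 0.547 in R+LE (log2 0.45 with RANKL, adjusted p = 0.015), and the RANKL call was lost without -R replicate 1 and with each +R library left out in turn, with an adjusted p of up to 0.159. Galns, which acts on keratan and chondroitin sulfate, fell with RANKL by 0.63 on the log2 scale (adjusted p = 0.0028), with group means of 18.3, 11.6 and 11.7 RPKM in -R, +R and R+LE. Sgsh, the heparan N-sulfatase, had means of 5.78, 4.21 and 3.21 RPKM, and its fall with RANKL, 0.42 on the log2 scale (adjusted p = 0.024), was lost whenever a library of -R or +R was left out, and 955 bases of its exons overlap Card14 on the opposite strand. Arsa, arylsulfatase A, had means of 9.66, 10.7 and 7.82 RPKM, and its LE difference of -0.43 on the log2 scale just missed the threshold (adjusted p = 0.057). Arsa shares 690 exon bases with the antisense gene C230037L18Rik.

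Among the 8 lipid and phosphate hydrolases and activators, 5 fell with RANKL and 2 rose, with a class median of -0.81 on the log2 scale. The share that fell was 62.5%, beside 21.5% of all genes tested, and the 25% that rose lies near the 23.9% of all genes. Lipa, at chr19:34492316-34527474, encodes lysosomal acid lipase, which frees cholesterol and fatty acids from the cholesteryl esters and triglycerides that macrophages take up. Its RPKM was 425 and 496 in -R cells, 124 and 102 in +R cells, and 299.7 and 230.0 in R+LE cells. No groups overlapped, and the R+LE libraries lay nearer to -R than those of Ctsl did. Lipa fell 4.09-fold with RANKL (log2 -2.03 ± 0.18, adjusted p = 3.1e-07), was 2.35-fold higher in R+LE than in +R (log2 1.23 ± 0.18, adjusted p = 0.00036), and was 1.74-fold lower in R+LE than in -R (adjusted p = 0.0032), the last call being lost without -R replicate 2 (adjusted p = 0.0852).

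Psap encodes prosaposin, the precursor of the saposins that present sphingolipids to their hydrolases, and was the most abundant gene of the class. It had 1140.0 and 1273 RPKM in -R cells, 379.8 and 322 in +R cells, and 427 and 410.4 in R+LE cells. The fall with RANKL was 3.44-fold (log2 -1.78 ± 0.18, adjusted p = 1.2e-06), and the R+LE libraries lay above those of +R by 0.26 ± 0.18 (adjusted p = 0.46). Pla2g15, a lysosomal phospholipase, had 20.3 and 21.5 RPKM in -R cells, 7.13 and 5.98 in +R cells, and 7.59 and 6.54 in R+LE cells. It fell 3.19-fold with RANKL (log2 -1.60 ± 0.14, adjusted p = 2.8e-07), and the +R and R+LE libraries overlapped. Ppt1, which removes palmitate from proteins, had 34.8 and 39.2 RPKM in -R cells, 18.3 and 16.5 in +R cells, and 24.8 and 19.2 in R+LE cells. Its fall was 2.13-fold (log2 -1.07 ± 0.15, adjusted p = 4.1e-05), and the difference with LE, 0.32 ± 0.15, did not pass (adjusted p = 0.22). Ppt1 shares 129 exon bases with Cap1 on the opposite strand.

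Smpd1 and Gm2a rose with RANKL. Smpd1, the acid sphingomyelinase that makes ceramide, went from 9.76 ± 0.367 RPKM in -R to 19.1 ± 1.55 in +R (log2 0.93, adjusted p = 0.00013) and stood at 11.4 ± 2.13 in R+LE, below +R by 0.73 on the log2 scale (adjusted p = 0.0044). Gm2a, the activator protein for the breakdown of GM2 ganglioside, had means of 23.0, 37.5 and 27.2 RPKM, with a passing rise with RANKL (log2 0.68, adjusted p = 0.0069) and an LE difference of -0.46 that did not pass (adjusted p = 0.13). The rise of Gm2a was lost with no filter, without -R replicate 1 and without +R replicate 1 (adjusted p of up to 0.105), and over the alternatives it ranged from 0.46 to 0.90. Acp2, a lysosomal acid phosphatase, fell with RANKL by 0.55 on the log2 scale (adjusted p = 0.0049) and had means of 20.8 and 20.3 RPKM in +R and R+LE, its fall being lost without replicate 2 of -R or of +R (adjusted p of up to 0.0831), with 652 bases of its exons shared with Ddb2 on the opposite strand. Asah1, acid ceramidase, passed in no comparison, with means of 63.2, 50.8 and 52.8 RPKM.

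Of the 6 membrane proteins, 5 fell with RANKL and none rose, and the class median was -0.81 on the log2 scale. The share that fell was 83.3%, beside 21.5% of all genes tested, of which 23.9% rose. Scarb2, also called LIMP-2, carries β-glucocerebrosidase to the lysosome. It had 32.4 and 35.1 RPKM in -R cells, 14.2 and 12.4 in +R cells, and 24.6 and 23.6 in R+LE cells. The groups were well apart, with R+LE in the middle. Scarb2 was 2.53-fold lower with RANKL (log2 -1.31 ± 0.14, adjusted p = 1.8e-06) and 1.81-fold higher in R+LE than in +R (log2 0.84 ± 0.14, adjusted p = 0.00083).

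Cd68, a mucin-like glycoprotein of macrophage lysosomes, had another order of groups. Its RPKM was 734 and 808 in -R cells, 468 and 422 in +R cells, and 376 and 297 in R+LE cells. R+LE was the lowest group. Cd68 fell with RANKL by 0.79 on the log2 scale (adjusted p = 0.0026, and 0.0662 without -R replicate 2), was 2.29-fold lower in R+LE than in -R (log2 -1.20 ± 0.19, adjusted p = 0.00012), and differed by -0.41 ± 0.19 between R+LE and +R, which did not pass (adjusted p = 0.19).

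Lamp1 and Lamp2, the main glycoproteins of the lysosomal membrane, fell with RANKL by 0.84 and by 0.82 on the log2 scale (adjusted p = 0.00097 and 0.00086). Their means in -R, +R and R+LE were 358, 199.9 and 282 RPKM for Lamp1 and 114, 64.5 and 94.4 RPKM for Lamp2. With LE the log2 difference was 0.50 ± 0.17 for Lamp1 (adjusted p = 0.082) and 0.54 ± 0.17 for Lamp2 (adjusted p = 0.045), so the genes fall on either side of the threshold with nearly the same estimate, and the Lamp2 call was lost in 8 of 17 alternatives, with an adjusted p of up to 0.324. Lamp1 shares 249 exon bases with Grtp1 on the opposite strand. Mcoln1, a calcium channel of the lysosomal membrane, fell with RANKL by 0.74 on the log2 scale (adjusted p = 0.00044), with means of 13.3, 7.78 and 7.23 RPKM. Cd63, a tetraspanin of late endosomes and exosomes, had means of 272, 215 and 159 RPKM and passed in R+LE against -R (log2 -0.79, adjusted p = 0.0031, and 0.0658 without -R replicate 2) but in neither of the other comparisons.

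**Figure D4:**
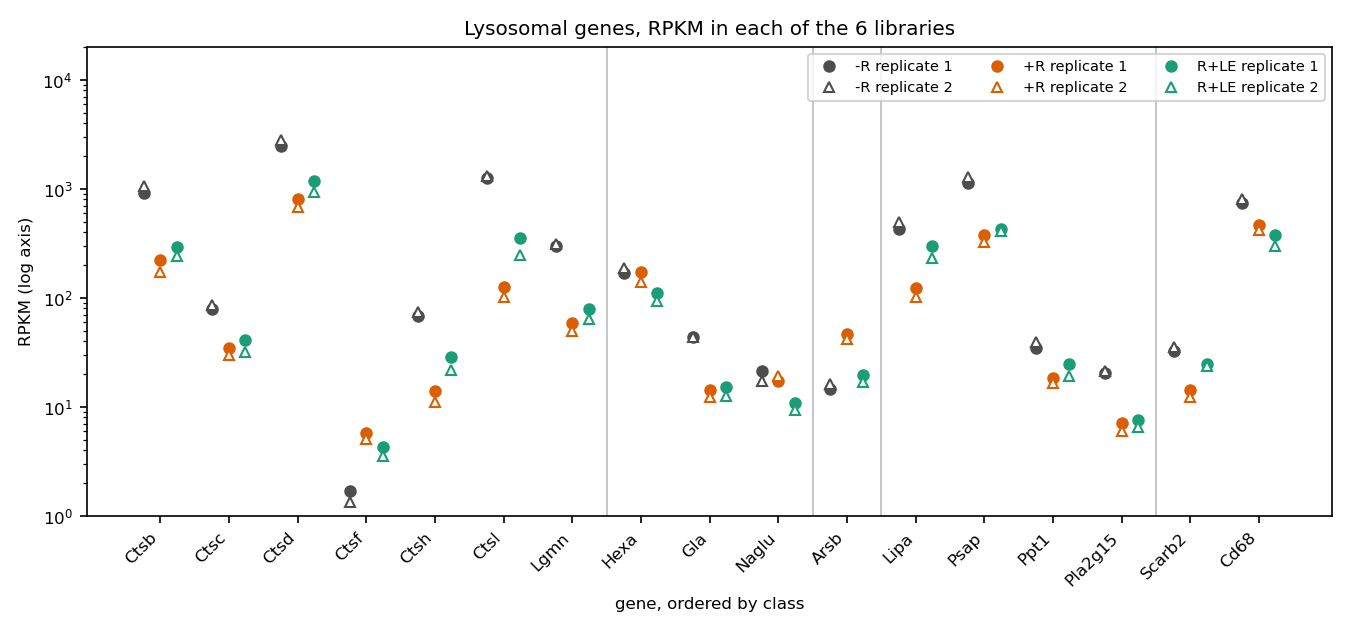
Points give RPKM on a log axis in each of the 6 libraries for the 17 members given by library in the text, ordered by class, with circles for replicate 1 and triangles for replicate 2. R+LE points lie between the +R and -R points for Ctsb, Ctsd, Ctsf, Ctsh, Ctsl, Lgmn, Arsb, Lipa, Psap, Ppt1 and Scarb2. The +R points of Ctsf and Arsb lie above both other groups, and the R+LE points of Hexa, Naglu and Cd68 lie alone at the bottom.

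The 28 members that passed with RANKL had unlike values with LE. Of the 21 that were lower in +R, the largest LE differences were 1.39 for Ctsl, 1.23 for Lipa, 0.99 for Ctsh and 0.84 for Scarb2, while Gla, Idua, Galns, Acp2 and Pla2g15 had LE differences between -0.03 and 0.10 on the log2 scale, all with adjusted p of 0.76 or more. Of the 7 that were higher in +R, Arsb, Smpd1 and Glb1 were lower with LE, and Ctsf, Gm2a, Manba and Ids had LE differences of -0.43, -0.46, -0.12 and 0.12 that did not pass. Since +R is in both comparisons, any error in the +R libraries moves the paired values in opposite directions.

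Genes of the same pathway outside the 39 were taken from lists, and counted in the same fit. Of 26 other lysosomal hydrolases, 3 were higher with RANKL and 14 lower (11.5% and 53.8%, beside 23.9% and 21.5% of all genes). The 3 that rose were Ctsk (log2 6.72), Acp5 (4.66), the tartrate-resistant acid phosphatase of osteoclasts, and Naaa (1.48), an amidase of fatty acid ethanolamides, and the largest falls were those of Ctss (-1.79), Ctse (-1.71) and Scpep1 (-1.37). Ctsk and Acp5 are also on the list of osteoclast markers. With LE, 1 was higher (Ctse, 0.84) and 5 were lower, among them Acp5 (-2.41), Ctsk (-2.15) and Hyal1 (-1.21), a hyaluronidase, which are shares of 3.85% and 19.2% beside 5.19% and 6.86% of all genes. In R+LE against -R, 3 were higher and 17 lower (11.5% and 65.4%, beside 15.3% and 19%). Rnaset2a and Rnaset2b count as separate lower genes there and with RANKL. They lie at chr17:8128598-8147788 and chr17:8128591-8147832, both on the minus strand, so their values may rest on the same reads, which was not tested.

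Of 31 other lysosomal membrane proteins and transporters, 27 passed the filter, and of these 1 was higher with RANKL and 15 were lower (3.70% and 55.6%, beside 23.9% and 21.5% of all genes). Clcn7, the chloride-proton exchanger that osteoclasts use to acidify the resorption pit, rose by 0.94 on the log2 scale, and the largest falls were those of the peptide and histidine transporter Slc15a3 (-3.37), the metal ion transporter Slc11a1 (-2.87), known as NRAMP1, and the amino acid transporter Slc36a1 (-1.99). With LE, 3 were higher and 2 lower (11.1% and 7.41%, beside 5.19% and 6.86%), so the lower share was near that of all genes. Slc11a1 had 228 and 221 RPKM in -R cells, 29.1 and 31.4 in +R cells, and 141 and 109 in R+LE cells, a 4.13-fold difference between R+LE and +R (log2 2.02 ± 0.16, adjusted p = 1e-06). Slc15a3 and Slc36a1 were higher with LE by 0.73 and 0.65, and Clcn7 and Slc29a3 were lower by 1.11 and 0.47 on the log2 scale. In R+LE against -R, 15 were lower and none was higher (55.6% lower, beside 19% of all genes), and 24 of the 27 were below 0 in that comparison.

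Of 15 genes that sort or mature lysosomal enzymes, 4 were higher with RANKL and 4 lower (26.7% each, near the 23.9% and 21.5% of all genes). Igf2r, the large mannose 6-phosphate receptor that brings new hydrolases to endosomes, had 4.75 and 5.72 RPKM in -R cells, 35.4 and 31.3 in +R cells, and 24.2 and 25.4 in R+LE cells, a 6.37-fold rise with RANKL (log2 2.56 ± 0.14, adjusted p = 1.4e-09) and a difference with LE that did not pass (log2 -0.42, adjusted p = 0.075). M6pr, the small mannose 6-phosphate receptor, and Gnptab, which makes the mannose 6-phosphate tag, rose by 0.80 and 0.70. The largest falls were those of progranulin, Grn (-1.31), Sort1 (-1.08), the sorting receptor sortilin, and Sumf1 (-0.66), the enzyme that activates all sulfatases. With LE, Sort1 was higher by 0.995 and Gnptab was lower by 0.86, shares of 6.67% each beside 5.19% and 6.86% of all genes, and in R+LE against -R 2 were higher and 4 lower (13.3% and 26.7%, beside 15.3% and 19%).

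The 4 MiT/TFE factors moved in different directions at the transcript level. Tfeb had 19.9 and 16.6 RPKM in -R cells, 10.4 and 11.4 in +R cells, and 12.1 and 10.3 in R+LE cells, and Tfe3 had 36.2 and 36.0, 22.6 and 23.0, and 22.0 and 22.4. Both fell with RANKL, by 0.71 and 0.65 on the log2 scale (adjusted p = 0.00098 and 0.00093), and differed by 0.03 and -0.04 with LE. Mitf had 9.73 RPKM in both -R libraries, 14.1 and 13.4 RPKM after RANKL, and 8.16 and 7.38 RPKM with LE added, a rise with RANKL of 0.48 (adjusted p = 0.0087) and a lower level with LE by 0.79 (adjusted p = 0.001). Tfec had 2.90 and 3.36, 7.73 and 6.68, and 8.27 and 7.05 RPKM, a rise with RANKL of 1.08 (adjusted p = 2.6e-05) with no passing difference with LE (log2 0.08). These are transcript levels, and the activity of these factors depends on their place in the cell, which was not measured.

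**Figure D5:**
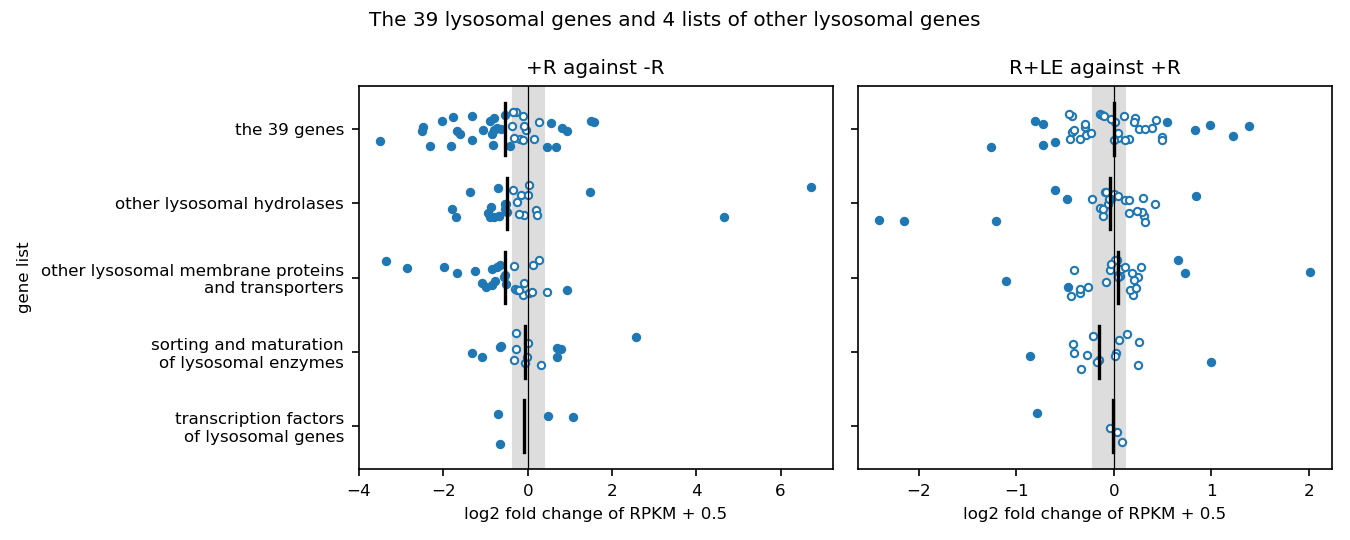
Each point is a gene, placed by its log2 fold change of RPKM + 0.5, for the 39 members and the 4 pathway lists, with filled points for an adjusted p under 0.05, black bars for list medians and a grey band from the lower to the upper quartile of all genes tested. The list medians with RANKL are -0.55, -0.50, -0.55, -0.07 and -0.09 from top to bottom, and with LE they lie between -0.15 and 0.05.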

How the data were processed

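Total RNA of primary bone marrow cells was sequenced in 6 libraries, 2 for each of -R, +R and R+LE, and their groups and replicate numbers were read from the sample labels. The authors sequenced paired ends of 100 bp and aligned them to mm10, with TopHat according to the methods of the study. The submitters' processing notes instead name HISAT2, beside HOMER and DESeq2, and versions are not given in the sources used here. According to the header, HOMER counted reads on exons of either strand, with 1 transcript per gene, and the deposited values are RPKM, although the column titles say FPKM. Of the symbols, 26 had become dates and all 26 were restored from transcript identifiers. Whole reads recovered from the RPKM steps (100% of values checked within 0.2 read) gave the depth.

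Because RPKM values are not counts, log2(RPKM + 0.5) was fitted, for the 11595 genes whose mean RPKM reached 0.5, with limma 3.58.1 in R 4.3.3, with all 3 groups in 1 model, empirical Bayes moderation, a variance trend and Benjamini-Hochberg adjustment over all genes tested. Changes on this scale understate those of genes with low values. A gene passed at an adjusted p under 0.05, and a change of at least 2-fold was judged on the log2 scale. Fold values in the text are ratios of mean RPKM. The scripts were tested on simulated counts whose spread beyond sampling was the same for every gene, which real data need not follow. For R+LE against +R, 86 of 98 genes changed 2-fold and 99 of 99 changed 4-fold passed, as did 17 unchanged genes. Tables and figures were made in Python 3.11.15 (pandas 2.3.3, numpy 2.4.6, matplotlib 3.10.9). Members and gene lists were chosen with earlier results of these data known, so lists are described by counts and medians and were not tested. Values by library are given for members that changed at least 2-fold in any comparison and for the most abundant and the most LE-changed member of each class. At most 3 rises and 3 falls are named from each pathway list, apart from Rnaset2a and Rnaset2b, which are named for their shared position. Of several promoters of a gene, that nearest to the start of the counted transcript was used. The alternatives changed the pseudocount to 0.1 or 1, dropped the filter or set it at 1 RPKM, dropped the variance trend, fitted only the groups compared, centred libraries on their median, applied quantile normalization, took Rn45s out of the depth, blocked on replicate number, ran voom on recovered reads, and left out each library in turn.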

Additional observations from a re-analysis of the deposited data

How the results depend on the processing

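Of the members that passed, 22 of 28 kept their call with RANKL, 5 of 10 with LE (Arsb, Ctsh, Ctsl, Lipa and Scarb2) and 17 of 28 in R+LE against -R under all 17 alternatives, and no passing member changed sign in any of them. The calls lost with RANKL were those of Acp2, Cd68, Glb1, Gm2a, Ids and Sgsh. In R+LE against -R, Acp2, Cd63, Galns, Hexa and Lipa lost theirs without -R replicate 2, Ids and Manba without -R replicate 1, Ctsz and Scarb2 with each of these left out in turn, and Gaa and Tpp1 likewise and in other alternatives. With LE, 5 members were higher and 5 lower in the fit reported. The higher count became 8 with centring on the median and 11 with quantile normalization. The lower count became 1 with no filter, where Glb1, Hexa, Naglu and Smpd1 missed the threshold, and 8 with quantile normalization and with voom on recovered reads. Leaving out 1 library gave between 4 (without -R replicate 1) and 7 higher and between 18 and 24 lower members with RANKL, between 4 and 10 (without R+LE replicate 2) higher and between 4 and 9 (without R+LE replicate 1) lower with LE, and between 1 (without -R replicate 1) and 3 higher and between 16 (without -R replicate 2) and 27 lower in R+LE against -R. The cause was not tested, and where an arm keeps 1 library, that library is assumed to vary like the others.

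The correlation of same-numbered deviations was -0.05 for -R and +R, 0.11 for -R and R+LE and 0.25 for +R and R+LE. These values cannot decide whether same-numbered libraries were paired, so the fit reported used no pairing. With the replicate number as a block, 7 members were higher and 22 lower with RANKL, 6 and 7 with LE, and 3 and 25 in R+LE against -R. Signs turned for some members that had not passed, and their log2 changes were as follows. Leaving Rn45s out of the depth put Ctsa at 0.0195 with RANKL, Galns at 0.0133 with LE and Gusb at 0.0506 in R+LE against -R. Centring and quantile normalization put Acp2 at 0.0187 and 0.0213 and Galns at 0.0504 and 0.0448 with LE, and Gusb at 0.0294 and 0.0336 in R+LE against -R. Leaving out 1 library at a time moved Ctsa from -0.159 to 0.0750 and Naglu from -0.218 to 0.0641 with RANKL. With LE it moved Acp2 from -0.140 to 0.0756, Asah1 from -0.162 to 0.250, Ctsc from -0.0148 to 0.334, Galns from -0.180 to 0.179, Gla from -0.0915 to 0.170, Idua from -0.0349 to 0.0588, Manba from -0.332 to 0.0874 and Pla2g15 from -0.0166 to 0.221. In R+LE against -R it moved Glb1 from -0.401 to 0.0397, Gm2a from -0.0258 to 0.464 and Gusb from -0.168 to 0.118. The members had at least 92 reads in every library.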
